A study of Mus musculus with 4 samples.

Results

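Cytosolic ribosomal proteins build the small and the large subunit of the ribosome, each protein in a single copy per subunit except in the acidic stalk. Their genes are expressed in nearly all cells, and their mRNAs typically begin with a pyrimidine tract that places their translation under mTOR control. Growing embryonic stem cells devote a large share of their mRNA to them, and a small number of paralogs, several of them known from testis or muscle, can stand in for the canonical proteins. The genes examined here were taken by symbol from the platform annotation: a single symbol beginning with Rpl or Rps followed by a digit, Rplp, or Rpsa, without the Rps6k kinases and without pseudogene symbols. This gave 63 genes of 19938 named genes on the array, of which 38 have large-subunit symbols and 24 small-subunit symbols. The remaining gene, Rps19bp1, is named as a binding protein of Rps19 and not as a subunit. The symbol alone set these groups, so the retrogene Rps23rg1 is counted among the 24.

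The cells were E14 mouse embryonic stem cells, infected with a lentivirus carrying an shRNA against Usp22 (Usp22 depleted, 2 arrays) or a control shRNA named Luc (control, 2 arrays). Cells of both groups were kept on gelatin, free of feeders, and received 20% FBS and LIF. Their medium also held 1 µM PD0325901, which inhibits MEK, and 3 µM CH99021, which inhibits GSK3. The labels do not say whether the 2 arrays of a group stem from separate cultures. The p-values therefore reflect the spread among these arrays alone, and that spread may be technical. Usp22 encodes the deubiquitinase of the SAGA coactivator complex, and the ribosomal protein genes were compared between cells with reduced and normal Usp22.

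Usp22 had log2 signals of 8.23 and 8.29 in Usp22 depleted cells, against 9.41 and 9.36 in control cells, and fell by 1.12 on the log2 scale (limma adjusted p = 0.00826). The call was lost without either depleted array (limma adjusted p = 0.830 and 0.360). Of 15 embryonic stem cell markers, 14 lay above the receptor background, which is the 95th percentile (6.99 on the log2 scale) of the mean signals of 1194 olfactory and vomeronasal receptor genes. Their summed linear signal was 17393 and 18080 in Usp22 depleted cells, against 18963 on both control arrays. No stem cell marker passed the test (limma, 0 at an adjusted p under 0.05). Both depleted arrays lay above both control arrays for 5 of the 15 and below both for 6 (27.4% and 33.3% of all genes). With limma's intensity trend, explained below, 1 was called higher (1.64% of all genes) and 4 lower (1.43%). The 1 was Sox2, at 0.59, and the 4 were Nanog, Tfcp2l1, Sall4 and Klf4, from −0.42 to −0.64. Above the receptor background lay 4 of 8 fibroblast markers, 2 of 6 primitive endoderm markers and 4 of 7 trophectoderm markers. Their summed signals were 1040 and 1085 in Usp22 depleted cells against 1084 and 1366 in control cells for the fibroblast list, 547 and 591 in Usp22 depleted cells against 642 and 799 in control cells for the primitive endoderm list, and 1160 and 1194 in Usp22 depleted cells against 1518 and 1601 in control cells for the trophectoderm list. No marker of these 3 lists passed the test (limma, 0 of 21 at an adjusted p under 0.05). At an unadjusted p under 0.05, 4 were lower, where 1322 of all 19938 genes were. The part of these markers in the values below was not tested. Across all genes, the control arrays differed more from each other: their median gap was 0.36 in size on the log2 scale, against 0.18 between the 2 Usp22 depleted arrays.

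After quantile normalization the ribosomal protein genes differed little as a group, and 1 of the 63 passed the test. Rpl39l rose 1.91-fold in Usp22 depleted cells. The median log2 difference of the 63 genes was 0.07, against −0.12 for all genes and −0.03 for the 9736 genes above the receptor background. In all, 44 of the 63 differences were above 0 and 19 below it, and 55 were smaller than 0.25 in size. The size of this shift depended on the scaling: with each array centred on its median, the median of the 63 was 0.29, with 61 above 0, against −0.09 for all genes. By limma with Benjamini-Hochberg adjustment over all genes, 1 member was higher, where 2.62% of all genes were called higher, and 0 were lower, where 0.105% of all genes were called lower. Without adjustment the limma test also gave 1 and 0 at p under 0.05, where 3078 of all 19938 genes were higher and 1322 lower. With the variance allowed to follow the signal (limma's intensity trend), 3 members were called higher, where 1.64% of all genes were, and 1 lower, where 1.43% were. The 3 were Rpl39l, Rpl5 and Rpl37a, and the 1 was Rplp2. At an unadjusted p under 0.05 that fit had 17 members higher and 3 lower, where 3167 and 1667 of all genes were. Without the trend, all genes shared a standard error of 0.27 and the smallest difference called on the array was 0.86 in size, whereas with the trend the standard errors differed between genes and smaller differences passed. With 2 arrays a group, the smallest p that exact permutation allows is 0.333. Arrays of bulk RNA do not tell less RNA per cell from fewer cells of a type, and scaling between arrays removes any change in total mRNA.

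Rpl39l encodes a paralog of Rpl39, a very small protein that lines the exit tunnel of the large subunit, and is known from male germ cells. Its normalized log2 signal was 10.25 and 10.09 in Usp22 depleted cells, against 9.21 and 9.26 in control cells. Both depleted arrays lay above both control arrays. The means were 10.17 ± 0.11 in Usp22 depleted cells and 9.24 ± 0.033 in control cells (SD, n = 2 each), a log2 difference of 0.93 (standard error 0.27, limma adjusted p = 0.0321). Taken as deposited, with log2 alone and no scaling between arrays, the values were 10.27 and 10.14 in Usp22 depleted cells and 9.23 and 9.17 in control cells. With each array centred on its 75th percentile, the difference was 0.98 and the call was lost (limma adjusted p = 0.0590), and with limma's robust settings the adjusted p was 0.0502. Leaving out 1 array at a time kept the difference between 0.86 and 1.01, and the call was lost without Usp22 depleted replicate 1 (limma adjusted p = 0.830) and without Usp22 depleted replicate 2 (0.423). The gene had a single row on the array, so no other row of its own could be set beside it. The rows that carry its partner Rpl39 also name another gene, so Rpl39 has no value here.

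In the RefSeq order of genes on chromosome 16, the measured neighbours of Rpl39l on one side were Atf7ip2 and Emp2. Atf7ip2 read 7.02 and 7.03 in Usp22 depleted cells against 6.39 and 6.08 in control cells, a log2 difference of 0.79 that did not pass the test (limma adjusted p = 0.0761). Emp2, which encodes an epithelial membrane protein, stood at 0.63 (limma adjusted p = 0.158). The mean signals of Atf7ip2, Emp2 and Grin2a lay under the receptor background. On the other side lay Grin2a, a glutamate receptor subunit gene, at −0.59, and 1810013L24Rik at −0.46 (limma adjusted p = 0.182 and 0.271).

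Promoter windows are shown for Rpl39l and for the members Rpl5, Rpl37a, Rplp2 and Rplp0, which are discussed below. All but Rplp0, which forms the stalk with Rplp2, passed with the intensity trend. By difference alone Rpl37a did not stand out, and Rps23rg1 and Rpl30 were among the members above it. Each runs from 100 bases before to 20 after the start that RefSeq gives (build GRCm38.p6, plus strand in every case). Capitals mark matches to the cores CCGGAAG (ETS factors) and GGGCGG (Sp1) on either strand, and pyrimidine tracts, defined as a C followed by at least 6 C or T on the gene's strand within 20 bases before to 40 after the start. The window of Rpl39l is chr16:10170128-10170247, that of Rpl5 chr5:107900428-107900547, that of Rpl37a chr1:72711160-72711279, that of Rplp2 chr7:141447551-141447670 and that of Rplp0 chr5:115559367-115559486.
Rpl39l: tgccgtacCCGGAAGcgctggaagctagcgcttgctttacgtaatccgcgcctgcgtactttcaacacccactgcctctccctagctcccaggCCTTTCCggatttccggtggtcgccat
Rpl5: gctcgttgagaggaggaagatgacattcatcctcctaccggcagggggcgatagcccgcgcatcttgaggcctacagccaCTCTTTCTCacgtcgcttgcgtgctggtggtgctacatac
Rpl37a: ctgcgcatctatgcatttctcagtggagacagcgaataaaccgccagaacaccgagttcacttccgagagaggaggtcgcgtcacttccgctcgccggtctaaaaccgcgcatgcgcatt
Rplp2: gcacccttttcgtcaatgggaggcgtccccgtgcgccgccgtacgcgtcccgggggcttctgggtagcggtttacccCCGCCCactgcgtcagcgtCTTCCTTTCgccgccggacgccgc
Rplp0: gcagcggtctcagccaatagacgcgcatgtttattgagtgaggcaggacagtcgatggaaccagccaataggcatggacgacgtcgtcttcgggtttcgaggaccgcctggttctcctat
The Rpl39l window holds 1 ETS core and a tract that ends just ahead of the start, and the Rplp2 window holds an Sp1 core in reverse and a tract across the start. The Rpl5 tract ends further ahead of the start, the tract found for Rpl37a lies beyond the stretch shown, and none of the searched motifs was found in the stretch shown for Rplp0. A match is a description of the letters and not a bound site.

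**Figure D1:**
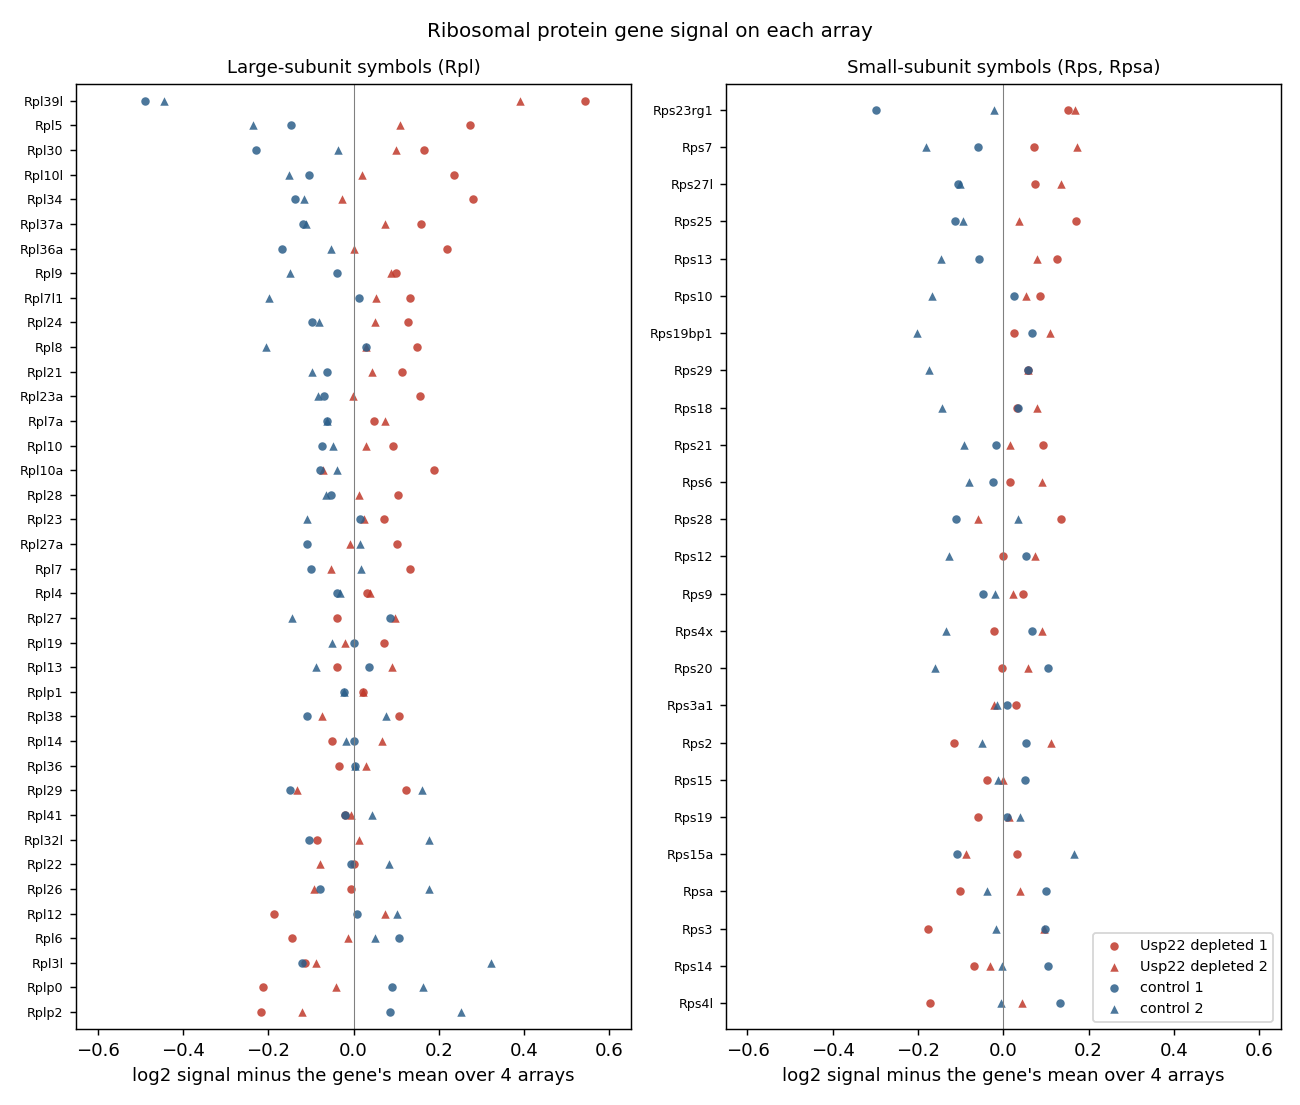
Log2 signal of each of the 63 genes on the 4 arrays, minus the gene's mean over the arrays (x axis, log2 units), with large-subunit symbols left and small-subunit symbols right, ordered by the difference between groups. Red points are Usp22 depleted arrays and blue points control arrays, with circles for replicate 1 and triangles for replicate 2; Rpl39l has the widest gap, and Rplp2 and Rplp0 show the depleted arrays on the low side.

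Rpl5 and Rpl11 carry 5S rRNA into the large subunit, and the free complex is known to bind Mdm2, the ubiquitin ligase of p53. Rpl5 had log2 signals of 10.80 and 10.64 in Usp22 depleted cells and of 10.39 and 10.30 in control cells. The groups did not overlap, and the log2 difference of 0.38 did not pass the test (limma adjusted p = 0.343). All 5 rows that carry the symbol Rpl5 alone were higher by their group means, with differences from 0.37 to 0.44. With the intensity trend, the standard error of Rpl5 was 0.11 and Rpl5 passed (limma adjusted p = 0.0230). Rpl11 was named only in rows with several symbols and has no value here, and neither has Rps27a. The 9 measured genes of the p53 axis on which this complex acts had a median of 0.32. Of them, 0 were called lower, where 0.105% of all genes were, and 1 higher, where 2.62% were. The gene was Pmaip1, which encodes the BH3-only protein Noxa, with 7.21 and 7.05 in Usp22 depleted cells against 6.22 and 5.96 in control cells (log2 difference 1.04, limma adjusted p = 0.0167), a mean signal under the receptor background. Sesn1, also under it, stood at 0.83 (limma adjusted p = 0.0595), Eda2r at 0.76 (0.0897) and Mdm2 itself at 0.26 (0.503). In all, 6 of the 9 were higher and 3 lower without overlap, where 27.4% and 33.3% of all genes were. The 3 were Bbc3, which encodes the BH3-only protein Puma, at −0.48, Phlda3, also a p53 target, at −0.42, and Mdm4, an inhibitor of p53, at −0.25 (limma adjusted p = 0.258, 0.304 and 0.525).

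The acidic stalk of the large subunit, on which elongation factors dock, is formed by Rplp0, the anchoring protein, with Rplp1 and Rplp2. Rplp2 read 11.16 and 11.26 in Usp22 depleted cells and 11.46 and 11.63 in control cells, the lowest difference among the 63 genes at −0.34 (limma adjusted p = 0.392). Both depleted arrays lay below both control arrays. With the intensity trend Rplp2 passed in the lower direction (limma adjusted p = 0.00154). Rplp0 read 10.74 and 10.91 in Usp22 depleted cells and 11.04 and 11.11 in control cells, a difference of −0.25, also without overlap (limma adjusted p = 0.514, and 0.0774 with the intensity trend). The second row of Rplp0 stood at −0.10. Rplp1 stood at 0.04, with 12.56 on both depleted arrays and 12.51 on both control arrays. These equal values arose in the quantile step, which gives equal ranks equal signals at the top of the scale. Before it, the values were 12.44 and 12.63 in Usp22 depleted cells and 12.61 and 12.49 in control cells, with overlap. Direction depended on the scaling for Rplp0, which stood at 0.04 after centring on the array medians, and for Rplp1, which stood at −0.03 with the 75th percentile. Rplp2 stood between −0.34 and −0.09 under the 4 scalings run.

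Among the large-subunit genes, the differences were small and mostly above 0. The 38 genes with large-subunit symbols had a median of 0.09. Of these, 18 were higher without overlap (both depleted arrays above both control arrays), 3 lower without overlap and 17 overlapping. Rplp1, whose arrays overlapped before the quantile step, is among the 18. The shares were 47.4% higher and 7.89% lower, against 27.4% and 33.3% of all genes and 36.8% and 37.7% of genes above the receptor background. Rpl30 stood at 0.26, Rpl34 at 0.25, Rpl36a at 0.22 and Rpl24 at 0.18, and none passed the test (limma adjusted p from 0.494 to 0.643). Rpl37a read 11.94 and 11.85 in Usp22 depleted cells and 11.66 and 11.67 in control cells, a difference of 0.23 that passed with the intensity trend (limma adjusted p = 0.0173) and not otherwise (0.549). Rpl37a lay outside the rule for named genes and is named after its value was seen. On the low side, Rpl6 read 11.84 and 11.97 in Usp22 depleted cells and 12.09 and 12.04 in control cells, without overlap and with a difference of −0.16 (limma adjusted p = 0.683), against a value of 0.03 after centring on the array medians. Rpl41, which encodes the shortest ribosomal protein, stood at −0.02, Rpl7 at 0.08, Rpl10, whose protein joins the subunit late in its assembly, at 0.12, Rpl22 at −0.08 and Rpl26 at −0.10. Rpl12 stood at −0.11 with overlap, and its Usp22 depleted arrays, at 7.91 and 8.17, differed by more than its control arrays, at 8.10 and 8.20.

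The 24 genes with small-subunit symbols, Rps23rg1 included, had a median of 0.07. Of these, 9 were higher without overlap (37.5%, against 36.8% of genes above the receptor background), 1 lower (4.17%, against 37.7%) and 14 overlapping. None passed the test (limma, 0 at an adjusted p under 0.05, 0 at an unadjusted p under 0.05 and 0 with the intensity trend). Rps7 read 11.10 and 11.21 in Usp22 depleted cells and 10.97 and 10.85 in control cells, a difference of 0.24. Rps25, at 0.21, and Rps13, at 0.20, also had both depleted arrays above both control arrays. Rps6, whose protein is the classic substrate of the S6 kinases downstream of mTOR, stood at 0.11. Rpsa, which encodes the subunit also known as the laminin receptor, stood at −0.06, with 12.03 and 12.16 in Usp22 depleted cells against 12.23 and 12.09 in control cells. Rps14 was the only small-subunit gene lower without overlap, at −0.10, and stood at 0.11 after centring on the array medians. With Rps19bp1 included, the small-subunit median was 0.15 without control replicate 1, and leaving out control replicate 2 gave 0.00. Rps19bp1 itself stood at 0.13 with overlap.

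Of the paralogs, 6 were measured with a symbol of their own, and Rpl39l was the single one that passed. Rpl10l, an autosomal paralog of X-linked Rpl10 that is required in male meiosis, read 9.89 and 9.67 in Usp22 depleted cells and 9.55 and 9.50 in control cells, a difference of 0.26 (limma adjusted p = 0.508). Rps27l, a paralog of Rps27 known as a p53 target, stood at 0.21 and Rpl7l1, a paralog of Rpl7, at 0.18, both without overlap (limma adjusted p = 0.588 and 0.632). Rps4l, which RefSeq lists as a transcribed pseudogene, stood at −0.13, against 0.07 for its X-linked partner Rps4x, both with overlap. The direction for Rps4l depended on the row and the scaling. Its other row stood at 0.03, and the row used stood at 0.14 after centring on the array medians. Rpl3l, the striated muscle paralog of Rpl3, was the 1 member under the receptor background, with 6.62 and 6.64 in Usp22 depleted cells and 6.61 and 7.05 in control cells. Its difference of −0.20 was 0.02 without control replicate 2. Rps23rg1, a retrogene of Rps23, is in the group by its symbol, and whether it encodes a ribosomal protein was not examined. It stood at 0.32 without overlap, with 7.48 and 7.49 in Usp22 depleted cells against 7.02 and 7.30 in control cells (limma adjusted p = 0.416). The 3 members on the X chromosome, Rpl10, Rpl36a and Rps4x, had a median of 0.12, and the 60 others one of 0.07.

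**Figure D2:**
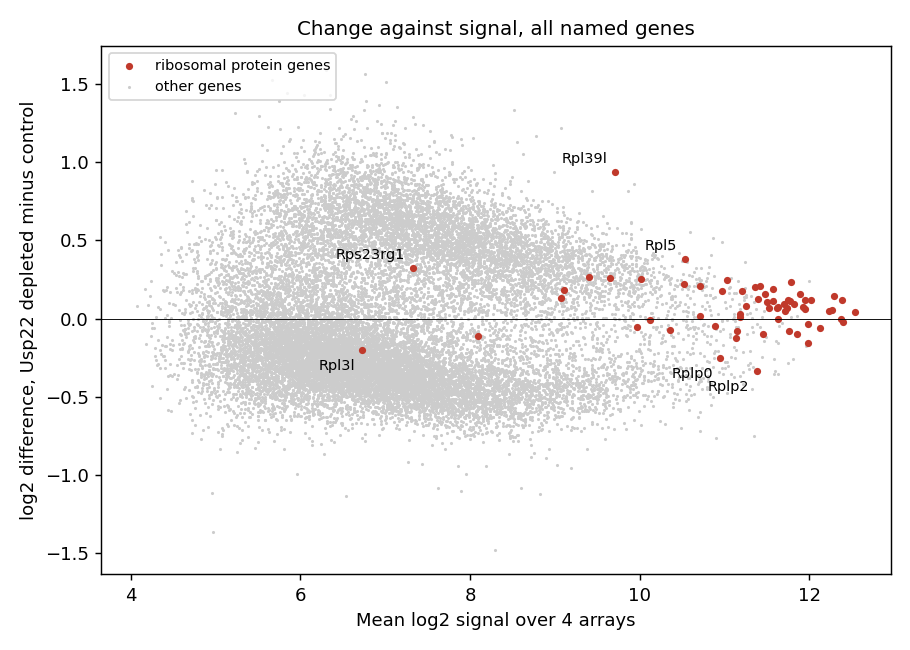
Log2 difference, Usp22 depleted minus control (y axis), against the mean log2 signal over the 4 arrays (x axis) for all 19938 genes, with the 63 ribosomal protein genes in red and the other genes in grey. The grey points form a band above 0 and a band below it. All ribosomal protein genes but Rpl39l lie between −0.34 and 0.38, most of them at the right end, and Rpl39l stands above them at 0.93.

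Most of the group lay near the top of the signal range of the array. A signal there reflects the probes as well as the amount of RNA, so genes were not ranked by it. The median of the 63 mean signals was 11.48 on the log2 scale, and the median of all genes was 6.96. Across the 63 genes the differences had an SD of 0.18, or 0.14 without Rpl39l. The gap between the arrays of a group had an SD across these genes of 0.13 for Usp22 depleted cells and 0.15 for control cells. A difference of group means and a gap between single arrays are not like quantities, and they were not compared. For all genes, the SD of the differences was 0.43, and those of the gaps were 0.28 and 0.46.

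Both depleted arrays lay above both control arrays for 27 of the 63 genes, or 42.9%, and below both for 4, or 6.35%. Over all genes these shares were 27.4% and 33.3%, and over genes above the receptor background 36.8% and 37.7%. In the brighter 0.5 of all genes they were 36.7% and 37.7%. The 4 lower genes were Rplp2, Rplp0, Rpl6 and Rps14. The 27 included Rpl39l, Rpl5 and Rps7, and their smallest difference was that of Rplp1, whose arrays overlapped before the quantile step. The median over the 63 genes was above 0 in each of the 4 pairings of a depleted with a control array, from 0.04 to 0.11, whereas the median of all genes ran from −0.16 to −0.03.

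The scaling moved the whole group. After quantile normalization 44 of the 63 differences were above 0, with each array centred on its median 61, on the deposited log2 values 52, and with each array centred on its 75th percentile 48. The medians were 0.07, 0.29, 0.15 and 0.13, beside medians of all genes of −0.12, −0.09, −0.24 and −0.26. Genes higher without overlap numbered 27, 50, 35 and 32, and those lower without overlap 4, 1, 4 and 4. Over all genes, 29.8% were higher without overlap with each array centred on its median, 25.8% on the deposited log2 values and 25.5% with the 75th percentile, and the shares lower without overlap were 31.2%, 40.9% and 42.1%. The median of the group was above 0 and above that of all genes under each of the 4 scalings, and it was lowest after quantile normalization.

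**Figure D3:**
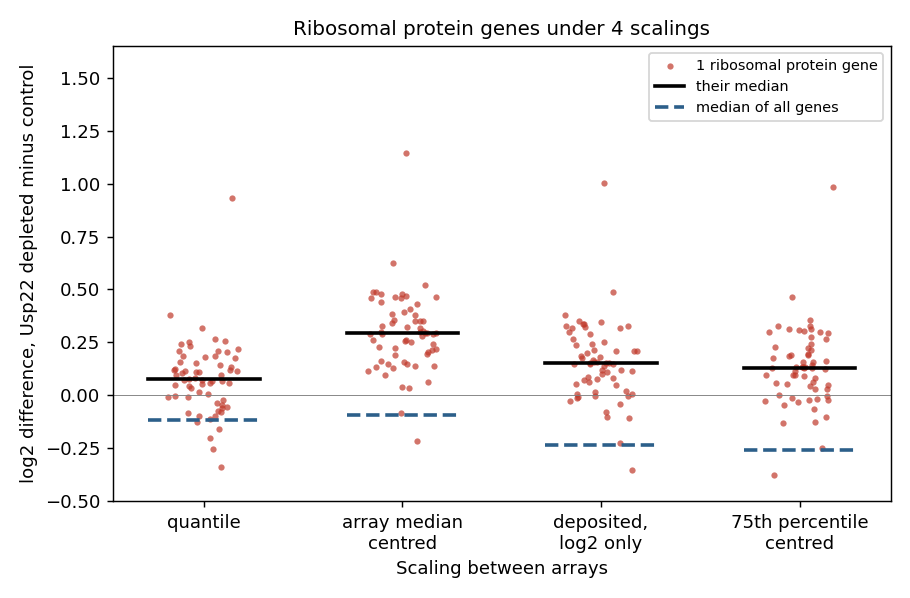
Log2 difference, Usp22 depleted minus control (y axis), of each of the 63 genes (red points) under 4 scalings between arrays (x axis), with their median (black line) and the median of all genes (dashed blue line). The medians of the ribosomal protein genes are 0.07, 0.29, 0.15 and 0.13 from left to right, and Rpl39l is the highest point in every column.

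Ribosomal protein genes have many processed pseudogenes and retrocopies, and rows of the array can share probes or sequence with them. The 63 genes had 219 rows with a single symbol, and 39 genes had more than 1 row, up to 14 for Rps12. Of the 156 rows not used, 142 were higher by their group means, with a median of 0.11. Rows of some genes lay close together: those of Rps12 ran from 0.055 to 0.093, those of Rps25 from 0.16 to 0.23 and those of Rpl9 from 0.09 to 0.23. Rows of some genes disagreed in sign, as those of Rpl23 at −0.119 and 0.095, those of Rpl6 from −0.16 to 0.025 and those of Rpsa from −0.066 to 0.114. A further 239 rows named a ribosomal protein gene together with another symbol, so that 20 ribosomal protein symbols had no row of their own, and 230 of these rows were higher by their group means, with a median of 0.15. Rows that share transcripts are not independent, and which copy gave the signal was not told apart.

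**Figure D4:**
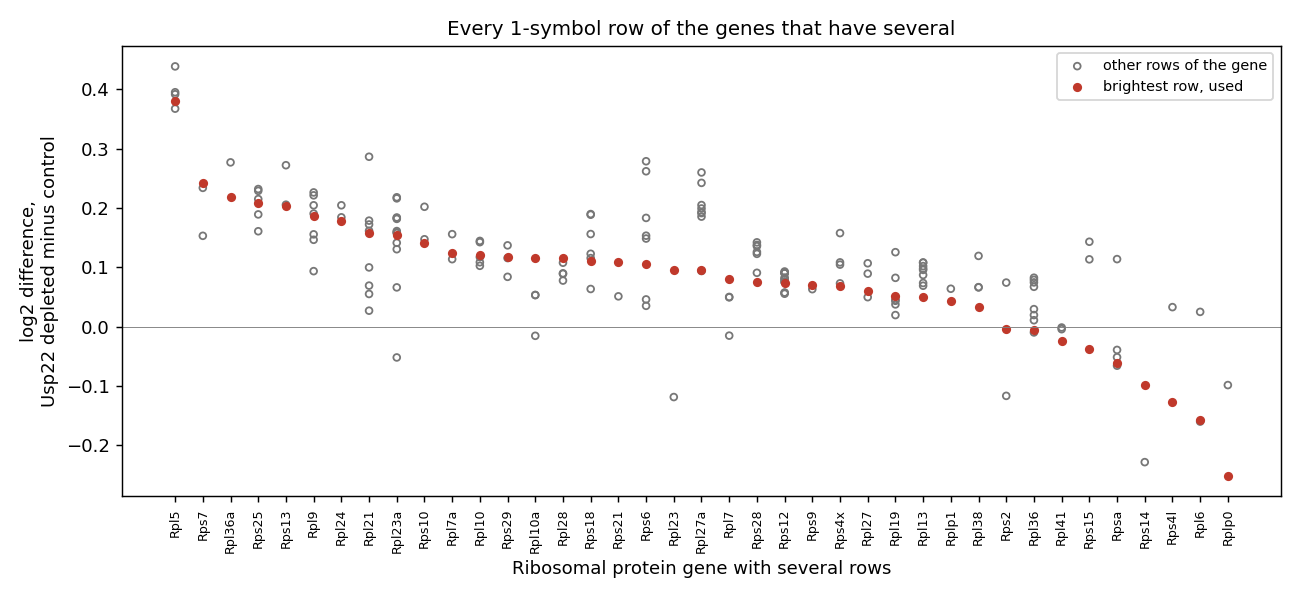
Log2 difference, Usp22 depleted minus control (y axis), of every row with a single symbol for the 39 ribosomal protein genes that have several rows (x axis), with the row used in red and the other rows as open circles. The 5 rows of Rpl5 lie between 0.37 and 0.44, and both rows of Rplp0 lie below 0.

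Of the motifs searched, which the choice of genes did not use, some were found in a larger share of the group's promoter windows than of all windows. Of the 63 genes, 51 matched a RefSeq promoter window by gene ID, with 60 windows of 250 bases before to 50 after a start. A pyrimidine tract as defined above stood near the start in 36 of 60 windows, or 60.0%, against 25.8% of all 32851 windows. The ETS core CCGGAAG was found on either strand in 33.3% of the members' windows and 8.86% of all windows, and the Sp1 core GGGCGG in 56.7% and 35.7%. The YY1 core AAGATGG was found in 8.33% and 6.34%, the E-box CACGTG in 11.7% and 7.15%, and TATAAA in 6 of 60 and 13.6%. The 34 genes with a tract in any window had a median log2 difference of 0.10, with 17 higher and 2 lower without overlap, and the 17 without one had a median of 0.07, with 6 higher and 1 lower. Of all genes, 27.4% were higher and 33.3% lower without overlap, and tract and no tract were not compared by a test.

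**Figure D5:**
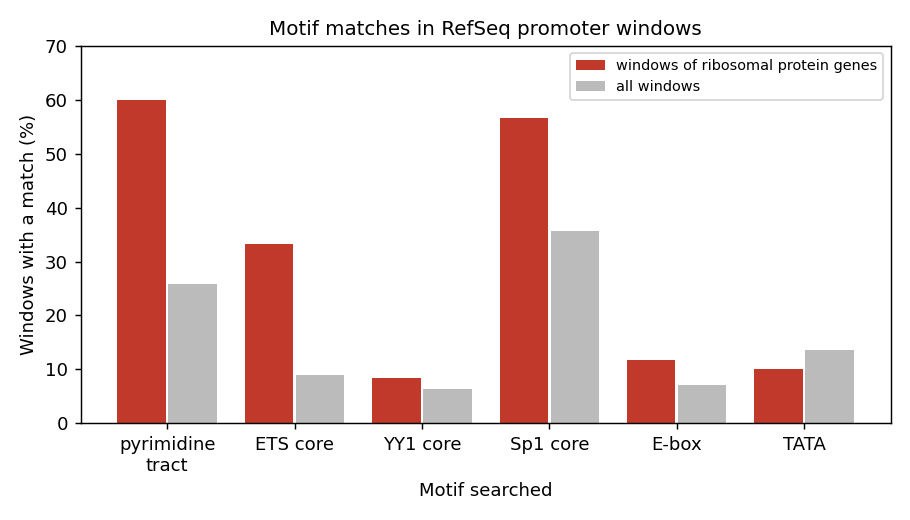
Share of RefSeq promoter windows with a match (y axis, percent) for a pyrimidine tract near the start and for 5 short motifs on either strand (x axis), with the 60 windows of ribosomal protein genes in red and all 32851 windows in grey. The tract and the ETS core are found in 60.0% and 33.3% of the red windows, against 25.8% and 8.86% of the grey.

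Genes that work with ribosomal proteins were set beside them. Other mRNAs known to begin with a pyrimidine tract, mainly of translation factors, had a median of 0.02 over 16 measured genes, and none passed (limma, 0 at an adjusted and 0 at an unadjusted p under 0.05). Among them, Eef2, the elongation factor that docks on the stalk, read 11.35 and 11.52 in Usp22 depleted cells and 11.76 and 11.77 in control cells, a difference of −0.33 (limma adjusted p = 0.400, and 0.000350 with the intensity trend). Eif3f stood at 0.30 and Eif3l at 0.22, both subunits of the initiation factor eIF3. Fau, whose product yields the small-subunit protein eS30 and whose symbol does not follow the naming of the group, stood at −0.03 with overlap.

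Of 22 measured genes that chaperone ribosomal proteins or assemble subunits, 0 passed the test (limma), with a median of 0.26. Array medians of the 22 genes overlapped, at 8.70 and 8.56 in Usp22 depleted cells and 8.77 and 8.40 in control cells. At an unadjusted p under 0.05, 3 were higher and 2 lower, where 3078 and 1322 of all 19938 genes were. Brix1 stood at 0.65, Pdcd2 at 0.64 and Heatr3 at −0.63 (limma adjusted p = 0.144, 0.154 and 0.158). With the intensity trend 1 gene of the list was called lower, where 1.43% of all genes were. It was Nob1, which acts in the maturation of small-subunit rRNA, at −0.63 (limma adjusted p = 0.0207). The 20 measured genes known to act on ribosomal protein genes or their mRNAs had a median of 0.16. Array medians of the 20 genes overlapped, at 8.635 and 8.707 in Usp22 depleted cells and 8.82 and 8.48 in control cells. Of the 20 genes, 0 were called lower, where 0.105% of all genes were, and 1 higher, where 2.62% were. It was Gabpb1, a subunit of the ETS-family factor GABP, with 7.45 and 7.21 in Usp22 depleted cells against 6.69 and 6.03 in control cells (log2 difference 0.97, limma adjusted p = 0.0265), a mean signal under the receptor background. With the intensity trend the call of Gabpb1 was lost (limma adjusted p = 0.0604). Where that fit called 1.64% of all genes higher and 1.43% lower, it called Larp4, at 0.39, higher (limma adjusted p = 0.0491) and 2 genes lower. These were Eif4ebp2, which encodes an mTOR-regulated repressor of translation, at −0.45 (limma adjusted p = 0.00143), and Larp1, whose protein binds mRNAs that begin with a pyrimidine tract, at −0.39 (0.0232). The Gabpb1 partner Gabpa, which carries the ETS domain, read 9.26 and 9.10 in Usp22 depleted cells and 8.83 and 8.59 in control cells, a difference of 0.47 without overlap (limma adjusted p = 0.268), and is named after its value was seen. Mtor stood at −0.54, Tsc1, a brake on mTOR, at 0.58, and Larp6 at −0.54 (limma adjusted p from 0.188 to 0.215). Tsc1 read 7.98 and 7.78 in Usp22 depleted cells and 7.68 and 6.91 in control cells. Larp6 read 6.72 and 6.80 in Usp22 depleted cells and 6.84 and 7.76 in control cells. Opposite in direction to Tsc1 was its partner Tsc2, at −0.47 (limma adjusted p = 0.263). Of the 20 genes, 11 had differences above 0 and 9 below it.

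Mitochondrial ribosomal protein genes, which serve the separate ribosome of that organelle, had a median of 0.32 over 77 genes, against 0.07 for the 63 cytosolic genes. Array medians of the 77 genes were 9.21 and 9.13 in Usp22 depleted cells, and 8.96 and 8.69 in control cells. Of the mitochondrial genes 55 were higher without overlap, or 71.4%, and 4 lower, or 5.19%. Over genes above the receptor background these shares were 36.8% and 37.7%. No mitochondrial gene passed the test (limma). At an unadjusted p under 0.05, 12 were higher and 0 lower, where 3078 and 1322 of all 19938 genes were. With the intensity trend 5 were called higher, where 1.64% of all genes were, and 1 lower, where 1.43% were. The difference between the cytosolic and the mitochondrial genes was not tested.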

How the data were processed

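RNA was measured on 4 one-colour Affymetrix arrays. The authors deposited a linear intensity for each of 28856 rows. How it was summarised and normalized is not stated in the labels. The lowest intensity was 16, and array medians ran from 109.8 to 127.8. The log2 intensities were quantile-normalized between arrays. GEO's platform annotation, which can be old, gave 1 symbol to 21789 rows, several to 1621 and none to 5446. The brightest row by mean was kept for each of 19938 genes. All 63 members matched RefSeq by gene ID with their symbols. No genome build is named for the rows, so promoter coordinates are those of RefSeq GRCm38.p6.

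Genes were fitted by lmFit and eBayes of limma 3.58.1 (R 4.3.3) as 2 groups, two-sided, with Benjamini-Hochberg adjustment over all genes and a threshold of 0.05. There were 2 residual degrees of freedom, and the variance was pooled over all genes. The fit was tested on simulated data. Members and lists were chosen with earlier results of these data known. Named members were those that passed, the 6 highest and 6 lowest differences, the stalk, the 5S rRNA binders, the paralogs and their partners, Rps19bp1, Rpsa, Rpl41, Rps27a and members under the receptor background. Of each other list, the genes that passed and up to 3 with the lowest p were named. Further genes given as examples were chosen after their values were seen. Alternatives covered scaling, variance model, filters, rows per gene, a pseudocount of 16, a replicate block, the list and leaving out each array, and the counts without overlap under other scalings were added after seeing the data.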

Additional observations from a re-analysis of the deposited data

How the results depend on the processing

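Rpl39l kept its sign in all alternatives run. Its call was lost with the 75th percentile, with robust settings and without either Usp22 depleted array, where 0 members were called higher by limma (1 at an unadjusted p under 0.05 each time). Members called lower numbered 0 except with the intensity trend, alone or with robust settings (1 each, Rplp2). The trend called 3 members higher, and trend with robust settings 2. The median of the small-subunit genes, Rps19bp1 included, ran from 0 without control replicate 2 to 0.147 without control replicate 1. The median of the members was 0.29 with arrays centred on the median, 0.15 on deposited log2 values, 0.13 with the 75th percentile and 0.0946 with rows of several symbols added. With 1 array left out it ran from 0.0681 to 0.113, the highest without control replicate 1, and members called higher from 0 to 1.

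Over the whole array, limma called 523 genes higher and 21 lower. Higher calls numbered 927 with arrays centred on the median, 75 on deposited log2 values, 59 with the 75th percentile, 326 with the trend and 295 with robust settings. Lower calls numbered 10 on deposited log2 values, 12 with the 75th percentile, 286 with the trend, 11 with robust settings, 339 with both, 36 without the dimmest 0.25 of genes, 148 without the dimmer 0.5, 149 above the receptor background and 47 with log2(value + 16). With 1 array left out, they ran from 0 to 4884 higher and from 0 to 4236 lower, with the highest counts without control replicate 1; the lone array left was assumed to vary like the other group. Without Usp22 depleted replicate 1, where limma called 0, 540 were higher and 48 lower at an unadjusted p under 0.05, and without Usp22 depleted replicate 2, with 0 called higher and 1 lower, 1628 and 338. The cause of these moves was not tested.

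The labels give no shared source for equal replicate numbers. The deviations of same-numbered arrays correlated at 0.105 over all genes and at -0.301 over the 63 members. With the replicate block, limma called 856 genes higher and 42 lower, and among the members again 1 and 0. Precision is limited by having 2 arrays a group. In the fit reported, without the intensity trend, no difference under 0.86 in size was called.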
